A study of Drosophila melanogaster with 7 samples.

Results

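Transcripts of 10 genes of glycolysis were followed step by step in the midgut of old Drosophila melanogaster females kept at 10%, 20% or 40% oxygen. They were chosen by name from the deposited table that pairs transcripts with genes, as 1 enzyme gene for each of 8 steps of the pathway and both genes of the glyceraldehyde phosphate dehydrogenase step. All 10 were found among 24204 features, 9 under the listed name and 1, listed as Pyk, under its RefSeq synonym PyK. All 10 passed the filter on low counts in every comparison.

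Glycolysis splits glucose into pyruvate in the cytosol and makes ATP and NADH without using oxygen. In low oxygen, the fly counterpart of the hypoxia-inducible factor, Sima, raises transcripts of several of these enzymes and of lactate dehydrogenase, and in larvae the nuclear receptor ERR keeps the pathway high. In the midgut, the fate of pyruvate matters to the stem cells, whose proliferation is restrained when pyruvate enters mitochondria. Hex-A, a hexokinase, traps glucose as glucose phosphate. Pfk, phosphofructokinase, catalyses the committed and most regulated step. Ald1, an aldolase, cleaves the sugar, and Tpi, triose phosphate isomerase, interconverts its products. Gapdh1 and Gapdh2 oxidise glyceraldehyde phosphate and make NADH. Pgk, phosphoglycerate kinase, makes the first ATP, Pglym78 is a phosphoglycerate mutase, Eno is enolase, and PyK, pyruvate kinase, makes the last ATP and pyruvate.

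Every group consisted of virgin females carrying sg-Gal4,UAS-GFP, the strain name in the labels, in closed cabinets, with midgut RNA taken at day 53. There were 3 libraries at 10% oxygen (hypoxia), 1 library at 40% (hyperoxia) and 3 at 20% (normoxia), all with the same driver and reporter. The labels do not say in which cells the driver is active, how many guts a library holds or whether the replicates are separate flies or cultures. The p-values therefore reflect the spread between these libraries alone, which may be technical. By the labels, batch 1 holds replicates 1 and 2 at 10% and at 20%, and batch 2 holds replicate 3 at 10%, replicate 3 at 20% and the 40% library. In whole midguts, fewer cells of a type and less RNA per cell cannot be told apart.

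The batches differed far more than the oxygen groups. Libraries held 19.22 to 22.22 M (mega) counts, of which transcripts of the mitochondrial genome took 61.0% to 71.0% in batch 2 and 4.10% to 4.68% in batch 1. That left 5.734 to 7.49 M other counts in batch 2 and 20.641 to 21.218 M in batch 1. Levels below are therefore counts per M counts (CPM) after TMM scaling, a factor per library that rests on the bulk of the genes. The 16 muscle markers summed to 12537 to 14955 CPM in batch 2 and 836 to 1161 CPM in batch 1. The 8 enterocyte markers, which define the absorptive cells of the midgut, summed to 16264 to 31231 CPM in batch 2 and 46082 to 51818 CPM in batch 1. Markers of other tissues were present in every library. Their lists summed to 238 to 2250 CPM for fat body, 132 to 553 CPM for Malpighian tubule and 55.0 to 174 CPM for germline. Sums were 11.5 to 85.9 CPM for trachea and 9.36 to 36.1 CPM for neurons. Of single markers, osk, vas, bam and aub of the germline and Fbp1 of the fat body were at 0 in the 40% library. So were bam in 20% replicate 3, piwi in 10% replicate 2 and Fbp1 in 20% replicate 2.

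Gapdh2 and Ald1, in the middle of the pathway, had the highest levels, and Hex-A and Pfk, at its entry, the lowest. On the TPM scale, which is per transcript length and so allows levels of different genes to be compared, Gapdh2 had rank 1 of the 10 genes in all 7 libraries. Pglym78 had rank 8, Hex-A rank 9 and Pfk rank 10 in all 7. Gapdh2 took 25.4%, 27.1% and 24.5% of the summed TPM of the 10 genes at 10% oxygen, 24.0%, 23.7% and 23.5% at 20%, and 21.0% at 40%. Pfk took 0.73%, 0.74% and 1.01% at 10%, 0.73%, 0.73% and 0.83% at 20%, and 0.93% at 40%. The order at the bottom of the range was thus the same in every library, while neighbours in the middle changed places. Ald1 had rank 2 in 6 of 7 libraries and rank 3 in 20% replicate 3, where Gapdh1 had rank 2. Tpi had rank 4 or 5 in 6 libraries and rank 7 in the 40% library.

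**Figure D1:**
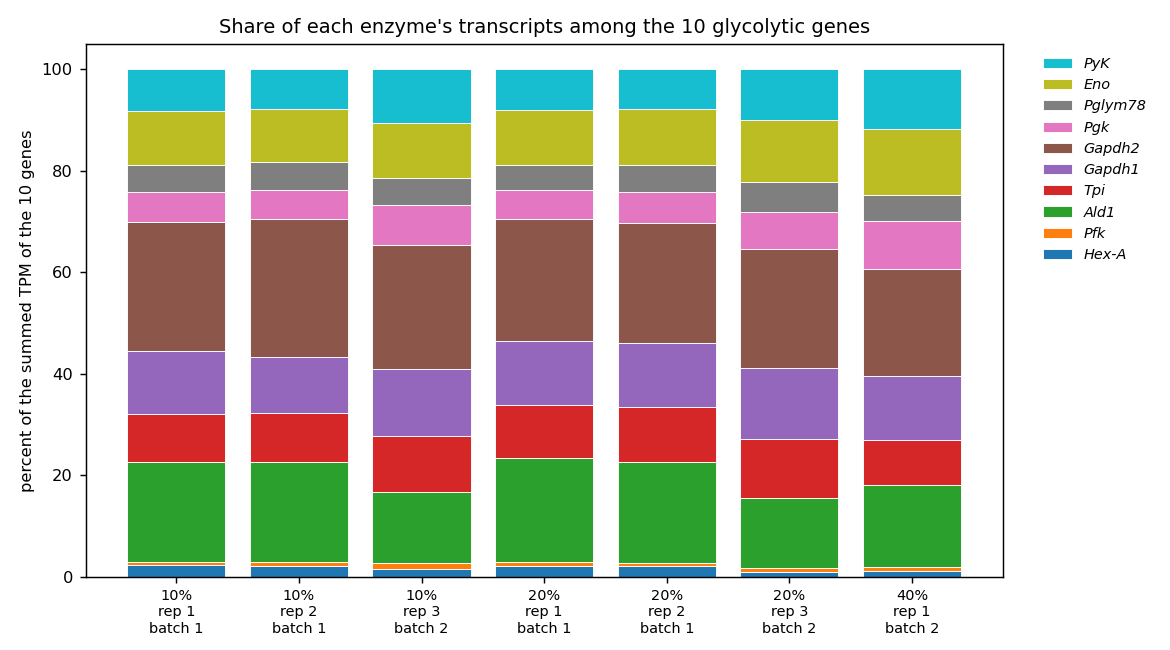
Share of each of the 10 glycolytic genes in their summed TPM, as stacked bars for the 7 libraries (x axis: oxygen, replicate and batch; y axis: percent). Gapdh2 is the widest band in every library, from 21.0% to 27.1%, and Pfk the narrowest, from 0.73% to 1.01%.

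The 10 genes together made up 0.269%, 0.289% and 0.227% of the counts outside the mitochondrial genome at 10% oxygen, 0.251%, 0.278% and 0.295% at 20%, and 0.254% at 40%. These shares rest on 14566 to 60270 counts per library, and the groups overlap. Across the 7 libraries, the coefficient of variation of the CPM was lowest for Gapdh1, at 9.16%, and highest for Hex-A, at 20.8%, and Pgk, at 18.2%. The fewest counts of any enzyme in any library were the 308 counts of Pfk at 40% oxygen, far above the 3 counts taken as the detection floor.

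**Figure D2:**
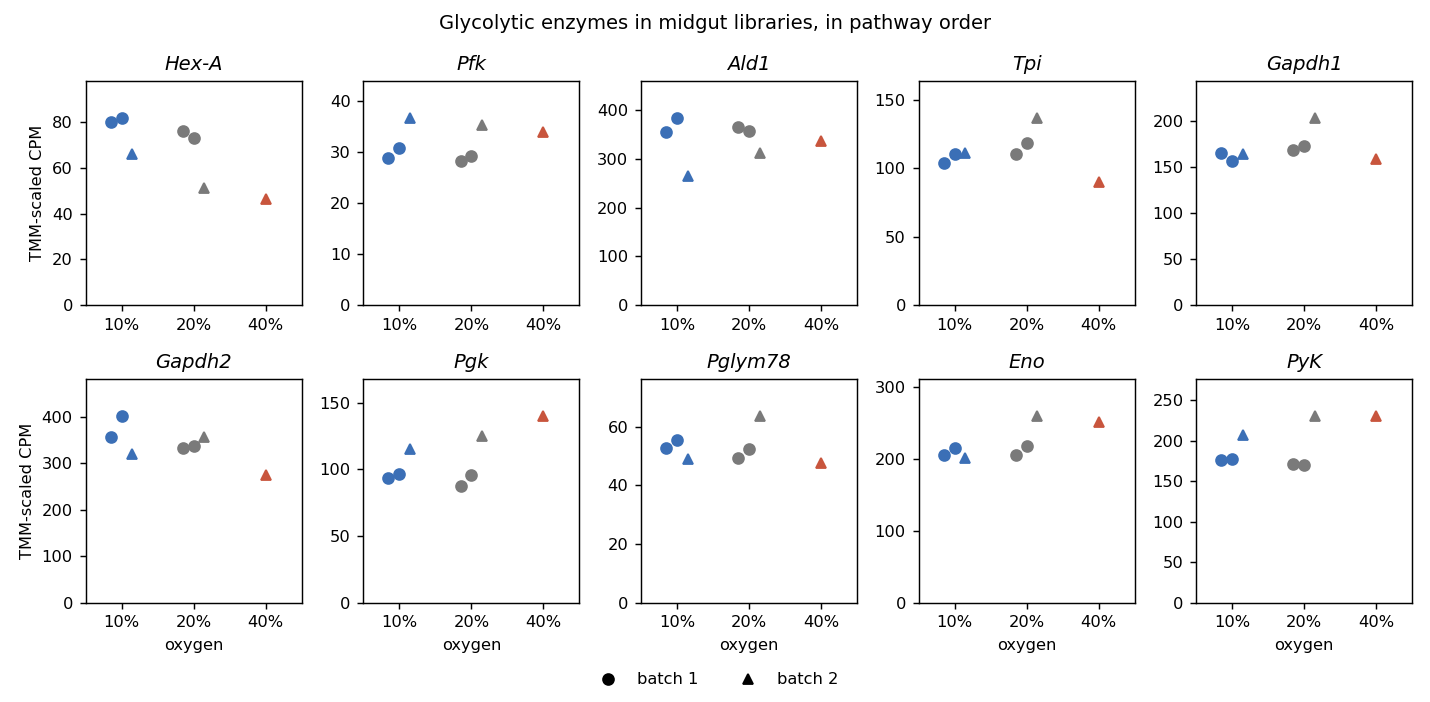
TMM-scaled CPM of the 10 glycolytic genes in every library, in pathway order, against oxygen (x axis). Circles are batch 1 and triangles batch 2, each panel has its own scale from 0, and the single 40% library is lowest for Tpi (90.0 CPM) and highest for Pgk (140.0 CPM).

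The comparison of 10% with 20% oxygen asks whether long-term low oxygen altered the pathway's transcripts. None of the 10 genes rose or fell past the threshold, an adjusted p (Benjamini-Hochberg, over all genes tested) below 0.05 in edgeR's quasi-likelihood test with batch as a covariate. The background was the same: edgeR called 0% of 9278 genes, with 584 at an unadjusted p below 0.05, none of them one of the 10, while DESeq2 called 124 genes and again none of the 10. The median log2 fold change of the 10 genes was -0.04, with 3 above and 7 below 0, against 0.01 over all genes tested. The precision was high, with standard errors (SE) of 0.06 to 0.12. The 95% intervals of the 10 genes together ran from -0.38 to 0.40 on the log2 scale.

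At the entry of the pathway, Hex-A had 80.0, 81.6 and 65.9 CPM at 10% oxygen, against 76.1, 73.2 and 51.0 CPM at 20%. It was higher at 10% within each same-numbered pair, but the groups overlap. Its log2 fold change of 0.20 (SE 0.08, 95% interval -0.01 to 0.40) was the largest positive one of the 10 and did not pass edgeR's test (adjusted p = 0.782). Pfk had 29.0, 30.9 and 36.7 CPM at 10%, against 28.3, 29.2 and 35.3 CPM at 20%, a log2 fold change of 0.06 (SE 0.06). The committed step thus had the narrowest interval of the 10, from -0.10 to 0.21.

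In the middle of the pathway, Ald1 had 355, 383 and 264 CPM at 10% oxygen, against 365, 357 and 311 CPM at 20%, a log2 fold change of -0.06 (SE 0.08). Tpi had 104, 110.4 and 111 CPM at 10%, against 111, 118 and 136 CPM at 20%. The 10% library was the lower one in each same-numbered pair, and the log2 fold change was -0.16 (SE 0.08, 95% interval -0.36 to 0.04, edgeR adjusted p = 0.792). Gapdh1 had 166, 157 and 164 CPM at 10%, against 169, 173 and 203 CPM at 20%. Its log2 fold change of -0.16 (SE 0.08) had an interval that included 0, from -0.36 to 0.04 (edgeR adjusted p = 0.793). Gapdh2, the other gene of the same step, had 357, 402 and 319 CPM at 10%, against 333, 336 and 356 CPM at 20%, a log2 fold change of 0.07 (SE 0.10).

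The later steps differed as little. Pgk averaged 102 ± 11.6 CPM at 10% oxygen and 103 ± 20.1 CPM at 20% (SD, n = 3 each), a log2 fold change of 0.00 (95% interval -0.20 to 0.20). Pglym78 averaged 52.4 ± 3.16 CPM at 10% and 55.1 ± 7.53 CPM at 20%. Eno averaged 207 ± 7.60 CPM at 10% and 228 ± 28.7 CPM at 20%, with a log2 fold change of -0.13 (SE 0.10). PyK averaged 187 ± 17.3 CPM at 10% and 191 ± 34.5 CPM at 20%, with a log2 fold change of -0.02 (SE 0.07). In all 4, the highest library at 20% was replicate 3, of batch 2.

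The batches gave different signs for several enzymes. In batch 1 alone, with 2 libraries a group, the log2 fold changes of 10% against 20% ran from -0.09 for Tpi to 0.18 for Gapdh2, and edgeR called none of the 10 (adjusted p from 0.747 to 0.994). In batch 2, with 1 library a group and no test, the log2 ratio of 10% to 20% was 0.37 for Hex-A and 0.05 for Pfk, and below 0 for the other 8 genes, from -0.13 for Pgk to -0.38 for Pglym78. Ald1, Gapdh2, Pgk, Pglym78 and PyK were thus on opposite sides of 0 in the batches, and these differences between batches were not tested.

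**Figure D3:**
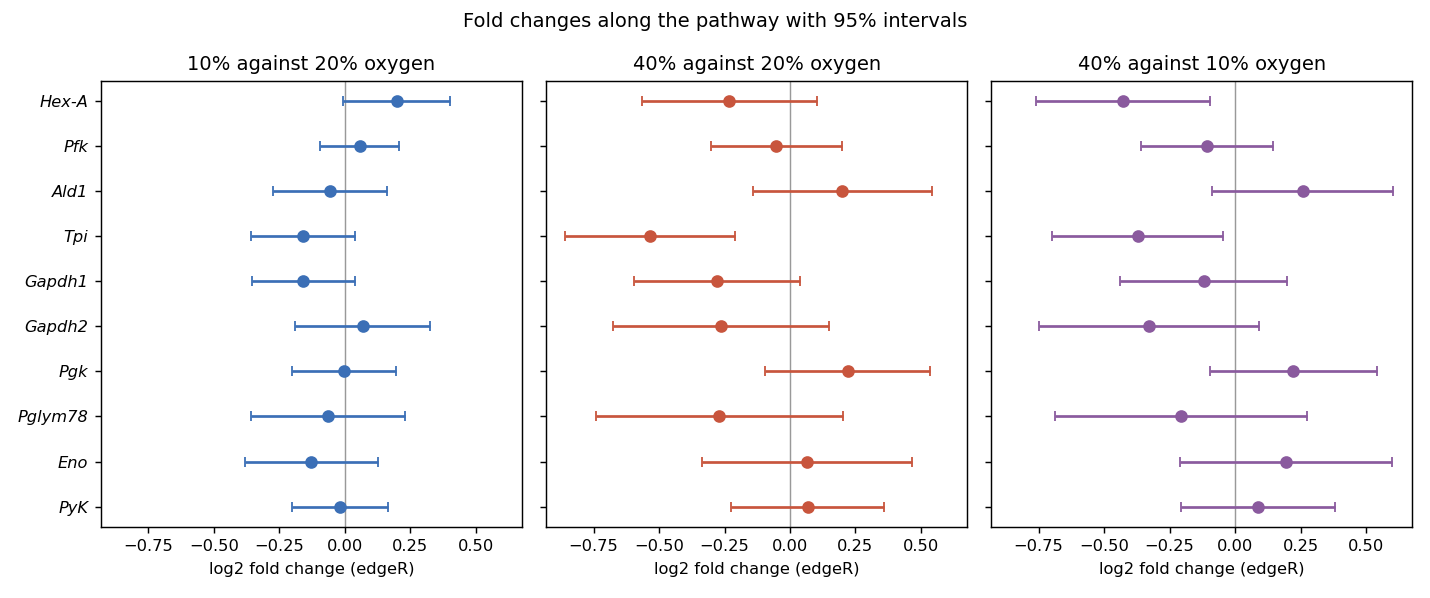
Log2 fold changes from edgeR (points) with 95% intervals (bars) for the 10 glycolytic genes in pathway order, for 10% against 20%, 40% against 20% and 40% against 10% oxygen. All 10 intervals include 0 for 10% against 20%, whereas Tpi at 40% against 20% lies below 0 (-0.86 to -0.21) without passing the adjusted threshold.

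The step with a gene pair allows a ratio within a library, which does not depend on scaling. Gapdh1 made up 32.7%, 29.0% and 34.9% of the TPM of both Gapdh genes at 10% oxygen, against 34.6%, 35.0% and 37.3% at 20%, and 37.6% at 40%. The share was lower at 10% in each same-numbered pair, but replicate 3 at 10% was above replicate 1 at 20%. The means were 32.2% ± 3.01 at 10% and 35.6% ± 1.5 at 20% (SD, n = 3 each). The difference of -3.44 percentage points did not pass an exact two-sided permutation test over all 6 libraries, which took no account of batch (p = 0.2, where 3 against 3 cannot go below 0.1). In both groups replicate 3, of batch 2, had the highest share. Reads that fit both genes are divided between them by the authors' estimate, so the split itself is uncertain to that extent.

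The comparison of 40% with 20% oxygen rests on 1 library at 40%, taken to vary as the replicated groups do. None of the 10 genes was called by edgeR, against 3.17% of the 10068 genes tested (142 higher and 177 lower at 40%), and 1 of the 10, Tpi, had an unadjusted p below 0.05. With the replicate number as a block in place of batch, the 40% library being put with the replicates 3 of its own batch, 1 gene of all those tested was called, and leaving out 1 library at a time gave 0 to 69 calls. The median log2 fold change of the 10 genes was -0.14, with 4 above and 6 below 0, against -0.03 over all genes.

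Tpi stood farthest from 0 at high oxygen. It had 90.0 CPM at 40% oxygen, against 111, 118 and 136 CPM at 20%, and the 40% library was the lowest of all 7. The log2 fold change was -0.53 (SE 0.13, 95% interval -0.86 to -0.21), with an edgeR adjusted p of 0.0938. DESeq2 called it, with a log2 fold change of -0.50 and an adjusted p of 0.016. Within batch 2, the log2 ratio of 40% to 20% was -0.60. Replicate 3 at 20% had the highest Tpi level of all 7 libraries, and without it the log2 fold change was -0.40.

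Both Gapdh genes were lower in the 40% library than in any at 20%. Gapdh1 had 159 CPM at 40% oxygen, against 169, 173 and 203 CPM at 20%, and its log2 fold change was -0.28 (SE 0.12, adjusted p = 0.294 by edgeR). Gapdh2 had 275 CPM at 40%, the lowest of all 7 libraries, against 333, 336 and 356 CPM at 20%, and its log2 fold change was -0.26 (SE 0.16, adjusted p = 0.442 by edgeR). Both values rest largely on replicate 3 at 20%, without which they were -0.13 for Gapdh1 and -0.03 for Gapdh2. Pgk, the next enzyme, had 140.0 CPM at 40%, the highest of all 7, against 87.1, 95.4 and 125 CPM at 20%. Its log2 fold change of 0.22 (SE 0.12) had a 95% interval from -0.10 to 0.53. The neighbours Gapdh2 and Pgk thus sat at opposite ends of their ranges in the same library, without either passing the test. These ranges span both batches, and Pgk was higher in each batch 2 library than in any of batch 1. Within batch 2, the log2 ratio of 40% to 20% was 0.16 for Pgk and -0.37 for Gapdh2. For Ald1 the log2 fold change was 0.20 (SE 0.13), for Hex-A -0.23 (SE 0.13) and for Pglym78 -0.27 (SE 0.18), with edgeR adjusted p-values of 0.480, 0.400 and 0.490. Pfk, Eno and PyK were within 0.07 of 0 on the log2 scale, at -0.05, 0.07 and 0.07. Beside these values, the 8 enterocyte markers summed to 16264 CPM at 40%, against 28533 CPM in the 20% library of the same batch, and the 16 muscle markers to 12537 CPM, against 13225 CPM. Their part in the levels of the enzymes was not tested.

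The comparison of 40% with 10% oxygen shares the 40% library with the one above and adds no independent evidence on it. None of the 10 genes was called by edgeR or DESeq2, while edgeR called 1.16% of the 10068 genes tested and none with the same replicate block. Leaving out 1 library at a time gave 0 to 56 calls. At 10% oxygen, Hex-A had 80.0 and 81.6 CPM in replicates 1 and 2, of batch 1. It had 65.9 CPM in replicate 3, of batch 2, and 46.2 CPM at 40%, of the same batch. Its log2 fold change was -0.43 (SE 0.13, 95% interval -0.76 to -0.10, edgeR adjusted p = 0.167). For Tpi, with 90.0 CPM at 40% against 104, 110.4 and 111 CPM at 10%, the value was -0.37 (SE 0.13, 95% interval -0.70 to -0.05, edgeR adjusted p = 0.203). Those 2 were the enzymes with an unadjusted p below 0.05. The other 8 had log2 fold changes from -0.33 for Gapdh2 to 0.26 for Ald1. Without replicate 3 at 10%, the values were -0.25 for Hex-A and -0.50 for Tpi.

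Between the batches the enzymes moved in different directions along the pathway. In the 10% and 20% libraries, with the oxygen group as a covariate, edgeR called 5 of the 10 genes between batch 2 and batch 1, against 55.6% of the 9278 genes tested, so the count is near the background. Pgk, PyK and Pfk rose in batch 2, with log2 fold changes of 0.39 (SE 0.08), 0.35 (SE 0.08) and 0.31 (SE 0.06) and adjusted p-values of 0.0119, 0.0129 and 0.01. PyK had 207 and 231 CPM in batch 2, against 176, 178, 172 and 170.5 CPM in batch 1. Both ATP-making steps were thus higher in each batch 2 library than in any of batch 1, and the 40% library of batch 2, which was not in this fit, had 231 CPM of PyK and 140.0 CPM of Pgk. Hex-A and Ald1 fell by 0.40 (SE 0.09) and 0.33 (SE 0.09) on the log2 scale, with adjusted p-values of 0.0133 and 0.03. With offsets for the deposited effective lengths the values were -0.75 for Hex-A and -0.51 for Ald1, and on TPM brought to the same median per library -0.92 and -0.82. Tpi, Gapdh1, Gapdh2, Pglym78 and Eno were not called, with log2 fold changes from -0.06 to 0.17.

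The batch values depend on single libraries and on the scale. Without replicate 3 at 20% oxygen, 1 of the 10 genes was called, Ald1, and without any other library 4 were. Ald1 was not called without any one of the 10% libraries, at -0.20 without replicate 3, nor without replicate 2 at 20%. Pfk was not called without replicate 3 at 10%, nor PyK without replicate 1 at 20%. Pglym78, not called in the full fit, was at 0.34 and among those called without replicate 3 at 10%, which left 1 library in batch 2. On TPM, where the mitochondrial transcripts enter the total, the median log2 difference of all genes was -1.11, and all 10 enzymes were called lower in batch 2. After each library was brought to the same median, Hex-A, Ald1 and Gapdh2 (-0.37) were called lower, while Pfk (0.14), Pgk (0.09) and PyK (0.05) were not called. All 16 muscle markers rose in batch 2 and 6 of the 8 enterocyte markers fell, the lists' medians being 4.16 and -0.71 on the log2 scale. Of the tested markers of other tissues, 5 of 5 for trachea rose, 4 of 6 for fat body rose and 1 fell, and 3 of 4 for neurons rose and 1 fell. The part of any of them in the enzymes' batch differences was not tested.

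Transcripts of 4 of the 10 genes differed between libraries in the 3′ ends to which reads were assigned. At 5 of the genes 1 transcript held nearly all of the TPM in every library: 90.7% to 95% for Tpi (chromosome 3R, 30132981 to 30134599, minus strand, in the annotation of assembly BDGP6.54), 99.5% to 100% for Gapdh1 (2R, 7791901 to 7793380, minus strand), 97.3% to 99.6% for Gapdh2 (X, 15868145 to 15869661, plus strand), 91.2% to 93.9% for Pgk (2L, 2746880 to 2753068, minus strand) and 97.0% to 99.1% for PyK (3R, 22367536 to 22372746, plus strand). Pglym78 lies at 29148248 to 29149901 on the plus strand of 3R, and its split varied between libraries. Its transcript of 1022 bases held 47.3% to 83.6% of the TPM. The transcript of 1042 bases held 39.6% in 20% replicate 1 and 0% in 10% replicate 1, 20% replicate 3 and the 40% library. The remaining 4 genes, Hex-A, Pfk, Eno and Ald1, have annotated 3′ ends at least 100 bases apart, and in all 4 the farther end gained share in batch 2.

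Hex-A lies on X at 9585675 to 9589813, plus strand, and its farthest 3′ end is 1412 bases beyond that of its other transcripts. The transcript with that end held 37.1%, 42.6% and 82.8% of the gene's TPM at 10% oxygen, 38.7%, 34.9% and 100% at 20%, and 100% at 40%. The batch 1 libraries lay between 34.9% and 42.6% and the 3 libraries of batch 2 at 82.8% or above. The other 2 transcripts have the same exon and differ only in where their coding sequence is annotated to begin.

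Pfk lies on 2R at 10109740 to 10117457, plus strand, with 5 transcripts and 320 bases between its outer 3′ ends. The farthest end held 59.9%, 58.7% and 69.0% at 10% oxygen, 59.9%, 60.0% and 69.4% at 20%, and 82.5% at 40%. Eno lies on 2L at 1724768 to 1729636, minus strand, with 292 bases between its outer ends. Its farthest end held 4.27%, 4.73% and 9.96% at 10%, 4.40%, 4.01% and 9.27% at 20%, and 16.9% at 40%. For both genes the 40% library was the highest of all 7, above both other libraries of its batch.

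Ald1 lies on 3R at 26254069 to 26261591, minus strand, and has 10 annotated transcripts that differ at both ends and in the last coding exon, which gives aldolase proteins with different ends. The 2 farthest 3′ ends together held 40.2%, 42.0% and 59.6% at 10% oxygen, 37.3%, 36.6% and 68.1% at 20%, and 87.8% at 40%. The transcript that starts at the inner site 26259835 held 34.0%, 31.5% and 14.9% at 10%, 34.2%, 34.8% and 10.3% at 20%, and 1.99% at 40%. Transcripts from the outermost start, 26261591, held 62.9%, 64.1% and 78.4% at 10%, 62.1%, 61.1% and 81.4% at 20%, and 91.0% at 40%. The start and end shares rest largely on the same transcripts. The inner-start transcript held most of the share of the end at 26255204. The transcript from 26261591 to 26254603 held most of the share of that start and of the 2 farthest ends. The shifts in starts and ends are thus not separate observations. The choice of last coding exon moved less between the batches at 10%. The class whose last coding exon ends at 26255431 held 75.3%, 75.6% and 75.9% at 10%, 73.3%, 73.1% and 80.1% at 20%, and 90.6% at 40%, and the class ending at 26256307 held 24.7%, 24.4% and 24.0% at 10%, 26.7%, 26.9% and 19.9% at 20%, and 9.40% at 40%. Reads of overlapping transcripts are divided by the authors' estimate, so these shares carry an error that the deposited values do not give.

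**Figure D4:**
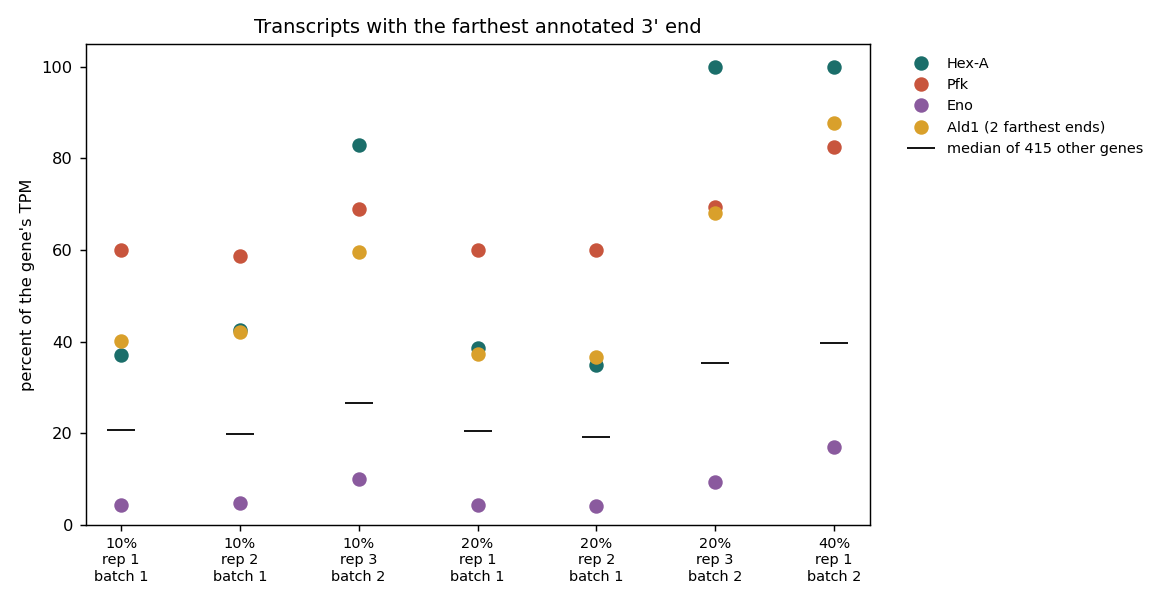
Percent of a gene's TPM held by the transcripts with the farthest annotated 3′ end (y axis) in the 7 libraries (x axis). Coloured points are Hex-A, Pfk, Eno and Ald1, and black bars the median of 415 other genes. For Ald1 the 2 farthest ends are pooled, unlike for the other genes, so its level is not comparable with the bars. The farthest end of Ald1 alone held 0.94% to 1.31% in batch 1 and 4.35% to 5.72% in batch 2. All 4 glycolytic genes are higher in the 3 libraries of batch 2 than in the 4 of batch 1, and the median of the other genes is 26.6% to 39.6% in batch 2 and 19.1% to 20.8% in batch 1.

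The gain in farther 3′ ends was also seen outside glycolysis. The other genes were those with separate 3′ ends, a TPM of at least 5 in each library and a farthest-end share that was above 5% in some library and below 95% in some library. The TPM minimum is one that Hex-A and Pfk did not reach in every batch 2 library. Among these 415 genes, the median share of the farthest end was 20.8%, 19.8% and 26.6% at 10% oxygen, 20.5%, 19.1% and 35.4% at 20%, and 39.6% at 40%. Of these genes, 225 (54.2%) were higher in both batch 2 libraries at 10% and 20% than in all 4 libraries of batch 1, and 213 (51.3%) were higher at 40% than in both of those batch 2 libraries. The deposited effective lengths implied mean fragment lengths of 273, 281 and 245 bases at 10% and 275, 281 and 255 bases at 20%. At 40% the length was 230.3 bases. The batch 2 libraries, with the higher medians, thus had shorter fragments than those of batch 1. Within batch 2 the order differed, as 20% replicate 3 had a higher median than 10% replicate 3 but longer fragments. The part of fragment length and of the mitochondrial share in these values was not tested. The share at 40% has no replicate, and oxygen and library cannot be told apart there.

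Strand matters for some of these genes. On the other strand, Cwc25 overlaps Pgk in exons, and Bacc overlaps it without any overlap of exons. An antisense RNA overlaps Ald1, eIF2D overlaps Pglym78 and Rrp40 overlaps Eno. The libraries were strand-specific per the labels, but the strand setting of the quantification is not given in the sources used here, so reads of these partners cannot be fully told apart. No feature overlaps any of the 10 genes on its own strand.

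The genes around glycolysis were read from the same fits. Of the other genes of the same steps, Hex-C, a second hexokinase, was the one tested at 10% against 20% oxygen. It had 28.2, 10.7 and 24.5 CPM at 10%, against 28.9, 29.7 and 38.1 CPM at 20%, and its log2 fold change was -0.60 (SE 0.35, edgeR adjusted p = 0.813). That value was -0.29 without replicate 2 at 10% and -1.10 without replicate 1 at 10%. CG11249 was tested only in the fits with all 7 libraries and was at 1.33 CPM at 40% and at or below 0.0858 CPM at 20%, too close to the floor to interpret. The other listed paralogs had 0 to 5 counts in every library and were not tested.

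No gene of the neighbouring lists was called between 10% and 20% oxygen by edgeR or DESeq2, and 2, 2, 0 and 1 genes of the 4 lists, in the order below, had an unadjusted p below 0.05. These lists held 17 tested genes of sugar entry and glycogen, 20 of lactate, pyruvate and gluconeogenesis, 7 of the pentose phosphate pathway and 10 regulators, with median log2 fold changes of -0.12, -0.10, -0.04 and 0.02. Pgi, the isomerase between Hex-A and Pfk, had a log2 fold change of 0.04 (SE 0.16). Ldh, lactate dehydrogenase, a common target of the hypoxia response, had 80.8, 104 and 45.2 CPM at 10%, against 60.3, 62.5 and 50.4 CPM at 20%. It was higher at 10% in replicates 1 and 2 and lower in replicate 3, and its log2 fold change was 0.35 (SE 0.19, adjusted p = 0.802 by edgeR). The smallest p-values of the 4 lists belonged to the sugar transporter gene sut2 at 0.81 (SE 0.21), the mitochondrial malate dehydrogenase Mdh2 at -0.22 (SE 0.08), the phosphogluconate dehydrogenase Pgd at -0.16 (SE 0.10) and ERR at -0.17 (SE 0.06), with edgeR adjusted p-values of 0.70 to 0.819.

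At 40% against 20% oxygen, edgeR called 2 of the 10 regulators higher. Over all 10068 genes tested, 142 were called higher, and 3.17% were called in either direction. At so low a rate, the absence of calls among the 10 enzymes is no contrast with the regulators. Whether regulators were called more often than other genes was not tested. The transcription factor gene foxo had 74.7 CPM at 40% and 38.8 CPM in replicate 3 at 20%, which shares its batch, and differed by 1.02 on the log2 scale (SE 0.12, adjusted p = 0.0363 by edgeR). Myc, a growth regulator, had 63.7 CPM at 40% and 31.6 CPM in replicate 3 at 20%, and differed by 0.98 (SE 0.16, adjusted p = 0.0498 by edgeR). DESeq2 called both. An annotated long non-coding RNA overlaps Myc on its own strand, so its counts are uncertain. With the replicate block the adjusted p was 0.0982 for foxo and 0.117 for Myc. Leaving out 1 library at a time gave 0.0534 to 0.1 for foxo and 0.0833 to 0.161 for Myc, so neither gene was called in any of these fits. Their log2 fold changes stayed at 0.95 to 1.17 for foxo and 0.92 to 1.04 for Myc. At 40% against 10%, foxo was called at 0.99 (SE 0.12, adjusted p = 0.0435 by edgeR), and by DESeq2, and with the replicate block the adjusted p was 0.121. Leaving out 1 library gave 0.0524 to 0.140.

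Of the 20 genes of lactate, pyruvate and gluconeogenesis, 16 were below 0 on the log2 scale at 10% against 20% oxygen. At 40% against 20%, which shares the 20% libraries, 19 were below 0, with a median of -0.30, against -0.03 over all genes. None was called by edgeR, 5 had an unadjusted p below 0.05, beside 2115 of the 10068 genes tested, and DESeq2 called Gpdh1 and Mdh2. Of the 8 enterocyte markers 7 were also below 0, with a median of -0.63, and their part in these values was not tested. Mdh2 had the smallest p-value, at -0.69 on the log2 scale (SE 0.12, adjusted p = 0.0582 by edgeR). Ldh had 31.7 CPM at 40%, against 45.2 CPM at 10% and 50.4 CPM at 20% in the replicates 3 of the same batch. Its log2 fold change against 20% was -0.44 (SE 0.31), and 0.08 without replicate 3 at 20%. Of the pentose phosphate genes, Rpe, ribulose phosphate epimerase, was at 1.04 (SE 0.17, adjusted p = 0.0501 by edgeR), just outside the threshold, and was called by DESeq2. For sut1, a sugar transporter gene, it was -0.68 (SE 0.19, edgeR adjusted p = 0.129). Against 10%, the smallest p-values of these 3 lists belonged to Gpdh1, a glycerol phosphate dehydrogenase gene, at -0.47 (SE 0.12), Rpe at 0.92 (SE 0.17) and Pgm2a, a phosphoglucomutase gene, at -0.40, with edgeR adjusted p-values of 0.125, 0.0770 and 0.248. DESeq2 called Gpdh1, Mdh2 and Rpe of these lists against 10%, and Myc of the regulators beside foxo.

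**Figure D5:**
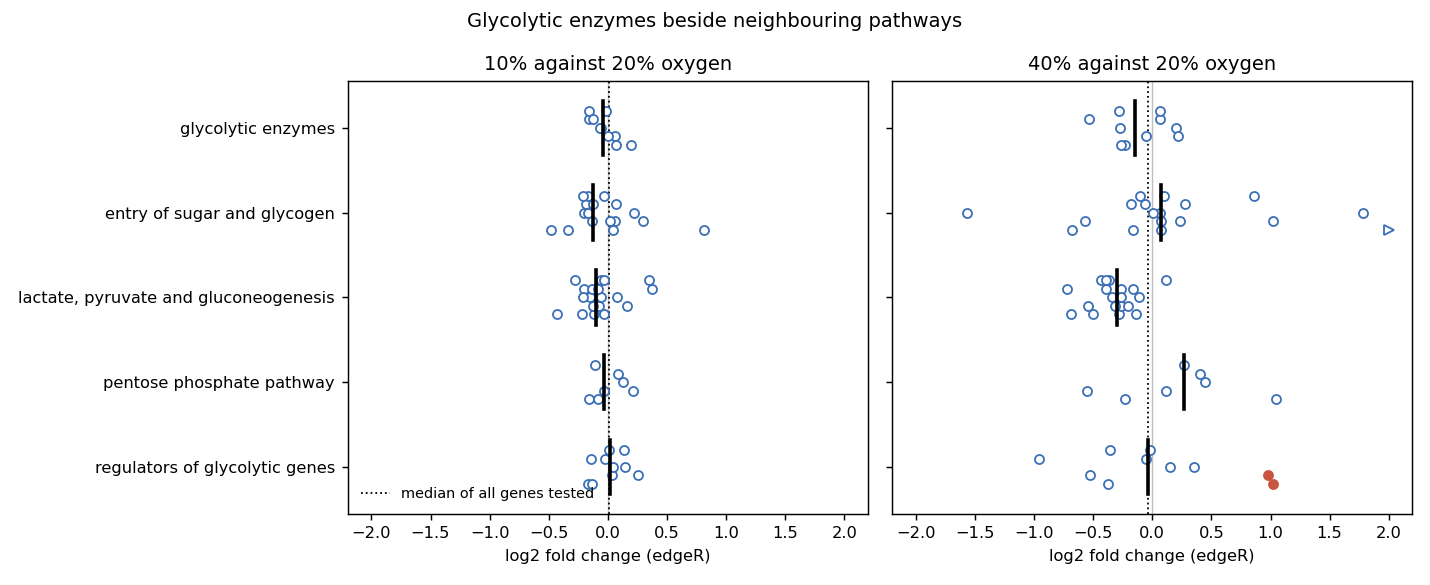
Log2 fold changes from edgeR (x axis) of the 10 glycolytic genes and of 4 lists of neighbouring genes, for 10% against 20% and 40% against 20% oxygen. Each circle is a gene, filled where called, thick bars are list medians, the dotted line is the median of all genes tested, and 1 gene beyond the axis, sut3, is drawn as an arrow at its edge. The filled circles are foxo and Myc at 40% against 20%.

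Genes of these lists also differed between the batches. In batch 2 against batch 1, edgeR called 2 of 17 genes of sugar entry and glycogen higher and 3 lower, and 3 of 20 of lactate, pyruvate and gluconeogenesis higher and 8 lower. It called 4 of 7 of the pentose phosphate pathway higher and 2 lower, and 2 of 10 regulators higher and 6 lower. These counts stand beside 55.6% of all genes tested, so they are no result about the lists. Of the pentose phosphate genes, Pgls (1.95 on the log2 scale), Rpe (1.69) and Rpi (1.25) rose, and Pgd (-0.86) fell. Of the genes around pyruvate, pyruvate carboxylase PCB (-0.96), Gpdh1 (-0.81) and muc (-0.55), of the pyruvate dehydrogenase complex, fell, while fbp (1.69), the gluconeogenic fructose bisphosphatase, rose. Trehalase, Treh (-1.11), and sut1 (-1.56) fell, and AGBE (0.46), the glycogen branching enzyme, rose, though it was not called without replicate 3 at 20%. The sugar transporter gene sut3 fell, with no counts in either batch 2 library of this fit and 0.633 to 1.01 CPM in batch 1. Among the regulators, sima (-1.07), ERR (-0.92), Pfrx (-0.60) and sug (-1.42) fell. Features on the same strand overlap fbp, Rpi, sima, Pfrx and sug, so their counts are uncertain.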

How the data were processed

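Midgut RNA was sequenced in 7 libraries. The authors deposited 1 table per library of expected counts, which are estimates per transcript, and of TPM, per the file headers. STAR 2.7.11b and Salmon 1.10.3 are named per the submitters' processing notes. For their settings and the genome build, the sources used here say nothing. The 41539 transcripts all have the length given in the Ensembl annotation of BDGP6.54, whose coordinates are printed.

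Both were summed over a gene's transcripts, and the counts then rounded. Calls are from edgeR 4.0.16 (R 4.3.3), with TMM, filterByExpr, batch as a covariate and Benjamini-Hochberg adjusted p below 0.05. SE and 95% intervals follow from the test statistic. The tests were first run on simulated data. Alternatives were DESeq2 1.42.0, limma 3.58.1 on log2(TPM + 1) (mean TPM 1 or more), other scalings, filters and designs, and leaving out each library. Centred TPM, and length offsets between batches, were chosen after seeing the data. Totals of 19.22 to 22.22 M counts make 3 counts 0.135 to 0.156 CPM before TMM scaling. The TMM factors, from 0.457 in the 40% library to 1.63 in 20% replicate 2, shift this floor on the scaled CPM. It is higher where the factor is small. Floors cover counting error only.

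Same-numbered libraries at 10% and 20% deviated together from their group means (correlations across genes of 0.440, 0.447 and 0.739). They share a batch in the labels, and different numbers within batch 1 correlated at 0.527 and 0.441, so the block mainly repeats the batch. The 40% library, numbered 1, was put in block 3 with its own batch. No pair of replicates agreed within sampling noise. Members and lists were chosen with earlier results of these data known. All members are named. Of each neighbouring list, called genes are named, up to 4 per comparison by p, or else the gene of smallest p. Pgi and Ldh were added outside this rule, as neighbouring steps. Listed symbols with no match, Dlat, Alat and Tkt among them, were left out.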

Additional observations from a re-analysis of the deposited data

How the results depend on the processing

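For 10% against 20% oxygen, 0 of the 10 enzymes were called under each of the alternatives run (replicate block 0, each left-out library 0). Signs of values near 0 turned: Pgk was 0.0006 with DESeq2 size factors and 0.0034 with DESeq2, and in batch 1 alone Ald1 was 0.033, Pgk 0.061, Pglym78 0.091 and PyK 0.052. Leaving out 1 library gave log2 fold changes of -0.11 to 0.030 for Ald1, -0.013 to 0.18 for Gapdh2, -0.056 to 0.058 for Pgk, -0.13 to 0.088 for Pglym78, -0.042 to 0.049 for PyK and -0.092 to 0.26 for Pgi. The difference in Gapdh1 share was -3.39 percentage points on expected counts, and -4.81 to -1.83 without 1 library.

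For 40% against 20%, 0 enzymes were called with the replicate block or without any 1 library, and 1 was called on TPM (Tpi, -0.95) and 1 by DESeq2. On TPM, which shifts the median of all genes by -0.32, Ald1 was -0.36, Pgk -0.22, Eno -0.41 and PyK -0.35, and on centred TPM Ald1 was -0.040, Eno -0.10 and PyK -0.039. With no batch term Pfk was 0.14 and Ald1 -0.033. Without 1 library, Pglym78 ran from -0.42 to 0.048, Eno from -0.049 to 0.32, CG11249 from -0.96 to 3.88, Pgi from -0.37 to 0.29 and Ldh from -0.67 to 0.083. For 40% against 10%, 0 were called with the replicate block or without any 1 library, and 1 on TPM (Hex-A, -0.77), where Ald1 was -0.29, Pgk -0.21, Eno -0.28 and PyK -0.33. PyK was -0.022 on centred TPM and Pfk 0.083 with no batch term. Without 1 library, Eno ran from -0.043 to 0.32, PyK from -0.047 to 0.16 and Pgi from -0.62 to 0.033.

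Between batches, 10 enzymes were called on TPM, 3 on centred TPM and 1 to 4 without 1 library. On TPM, Pfk was -0.98, Tpi -1.28, Gapdh1 -1.28, Pgk -1.04, Pglym78 -1.33, Eno -1.32, PyK -1.07, Hex-C -0.93, AGBE -0.87 and Rpi -0.20. On centred TPM, Tpi was -0.15, Gapdh1 -0.15, Pglym78 -0.20 and Eno -0.20. Without 1 library, Gapdh2 ran from -0.23 to 0.11, Pglym78 from -0.12 to 0.34 and Eno from -0.051 to 0.32. The cause of these changes was not tested. Over all genes, the alternatives other than leaving out a library called 0 to 124 genes at 10% against 20%, 1 to 1258 at 40% against 20% and 0 to 1218 at 40% against 10%. Depth was lowest in batch 2, and a single library at 40% limits every statement on high oxygen.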
